A study of Rattus norvegicus with 24 samples.

Results

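The addition of repeated ammonia infusions to a portocaval shunt was examined in rat cerebellum by setting 5 arrays of the group labelled PCA+NH3 against 5 arrays of the group labelled PCA. Arrays were assigned by their labels, and these are 10 of the 24 arrays of the series. All rats were Sprague-Dawley; both groups had undergone portocaval anastomosis (PCA), an operation that leads portal blood past the liver, 6 months before the tissue was taken. The PCA+NH3 rats had in addition received 10 infusions of ammonium acetate, spaced 2 weeks apart, with ammonia given at 20 µl/min for 3 h. The labels name neither the concentration of ammonium acetate, nor the age and sex of the rats, nor any vehicle infusion in the PCA group. The groups PCA+LPS (5 arrays) and PCA+NH3+LPS (4 arrays) also carried the shunt for 6 months and received 10 infusions spaced 2 weeks apart. They were given lipopolysaccharide (LPS), a bacterial cell wall component, at 5 mg/kg, without or with ammonia. Sham-operated rats (Sham, 5 arrays) lacked the shunt. Whether the numbered samples came from separate animals is not stated, so p-values measure the spread between these samples, which may in part be technical. Of 29016 probe sets, 19338 carried a single gene symbol, and these gave 18137 genes, each read from its probe set of highest mean; all values are log2 levels rounded by the authors to 1 decimal.

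The liver normally clears ammonia from portal blood by forming urea. When blood passes the liver through a shunt, ammonia reaches the brain, where astrocytes take it up into glutamine through glutamine synthetase. The cerebellum is a brain region studied in hepatic encephalopathy because motor coordination and learning that depend on it are disturbed, and glutamate receptors, the nitric oxide to cyclic GMP pathway, GABA signalling, astrocyte swelling and microglia have each been linked to the condition.

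The arrays were checked for tissue other than cerebellum before any comparison. Transcripts of Purkinje cells (Pcp2) and of granule cells (Gabra6) were high, from 10.3 to 10.7 and from 12 to 12.4 on the 10 arrays. Ttr, which encodes transthyretin and is made in the brain almost wholly by the choroid plexus, the tissue that secretes cerebrospinal fluid, lay at 6.0, 5.6, 7.2, 10.3 and 7.8 on PCA arrays 1 to 5. On PCA+NH3 arrays 1 to 5 it lay at 12, 12.4, 7.4, 6.3 and 12.5. PCA+NH3 arrays 1, 2 and 5 thus stood above every PCA array, and PCA+NH3 arrays 3 and 4 lay within the PCA range. The other groups ranged from 5.5 to 8.2 in Sham and from 5.6 to 11.0 in PCA+LPS, and PCA+NH3+LPS held 1 array at 12.5 and 3 between 5.9 and 6.1. Of 17 measured choroid plexus markers, 16 were higher in PCA+NH3 and 10 of them had an unadjusted limma p under 0.05 in that direction, where 2.08% of all genes did; their median difference was 1.44. Per array, the mean of the 17 markers, each centred on its own mean, ran from -0.65 to 0.10 in PCA and stood at 0.99, 1.96, -0.40, -0.37 and 2.67 in PCA+NH3. Aqp1, the water channel of the choroid plexus epithelium, lay between 5.1 and 5.3 in PCA and between 5.5 and 7.6 in PCA+NH3. Without PCA+NH3 arrays 1, 2 and 5 and PCA+NH3+LPS array 3, the median difference of the markers was -0.02. Otx2, a transcription factor of choroid plexus epithelium, did not follow Ttr, being at 6.0 on PCA+NH3 array 1 and 9.4 on array 4.

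**Figure D1:**
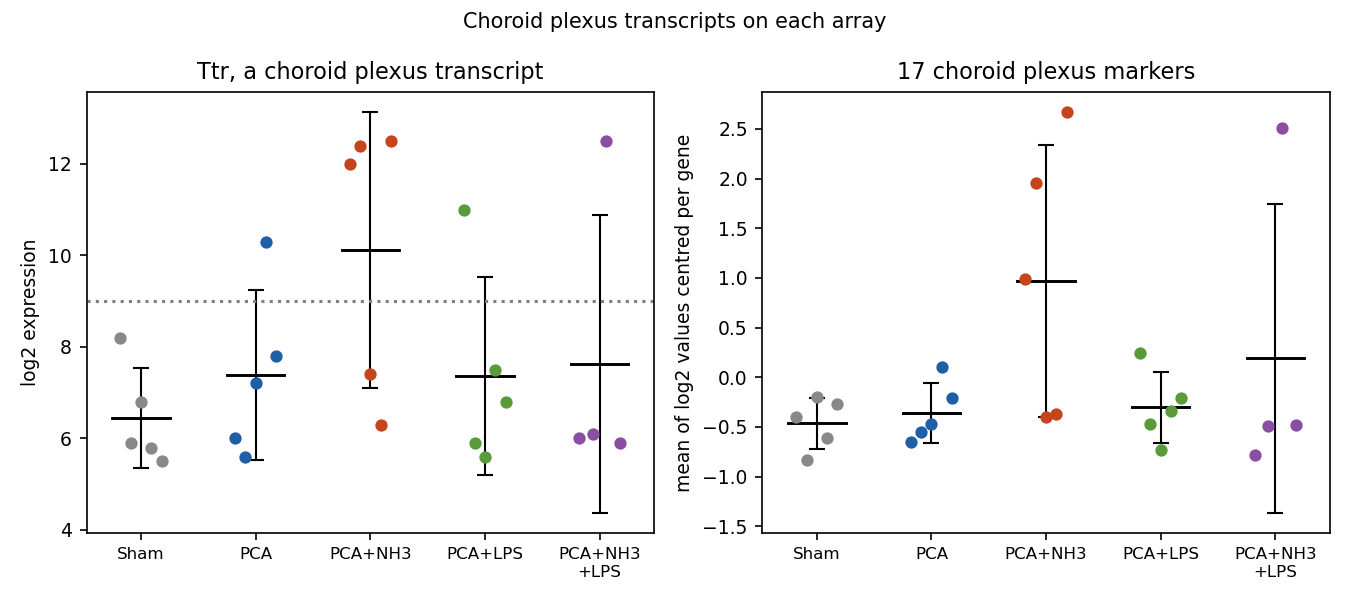
Left, log2 level of Ttr on each of the 24 arrays by group, with a dotted line at 9; right, the mean of 17 choroid plexus markers on each array, each marker centred on its mean over all arrays. Points are arrays, horizontal lines are group means and error bars are SD; 3 of 5 PCA+NH3 arrays and 1 of 4 PCA+NH3+LPS arrays stand above all other arrays in both panels.

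Transcripts of other neighbouring tissue also differed between arrays. Dbh, the noradrenaline-synthesising enzyme of brainstem neurons, lay at 8.6 and 7.0 on PCA+NH3 arrays 1 and 2 and at 6.9 on PCA array 3, against 4.2 to 4.7 on the remaining arrays of both groups. PCA array 3 also had the highest list means of its group for ependyma (0.90), microglia (0.39), myelin (0.46) and brainstem neurons (0.51), and the lowest for granule cells (-0.26). Results below are given with all arrays and, where it matters, without the 4 arrays rich in choroid plexus markers; that leaves 2 PCA+NH3 arrays. The part of these transcripts in the results was not tested beyond that. In bulk tissue, fewer cells of a type and less RNA per cell cannot be told apart.

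No gene passed the threshold of an adjusted p under 0.05 in PCA+NH3 against PCA (0 of 18137, 0%), by limma's moderated test fitted over all 24 arrays in 5 groups. At an unadjusted p under 0.05, 378 genes (2.08%) were higher and 525 (2.89%) lower with ammonia. Whatever the p, 42.3% of all genes were higher and 49.3% lower. The smallest adjusted p was 0.0577, for Dusp4. The difference exceeded 1 on the log2 scale, either way, in 23 genes and 0.5 in 129, and the 95% interval of a difference reached a median of 0.205 to each side. Groups did not overlap in 18 genes higher with ammonia (0.0992%) and in 34 lower (0.187%). The 12 genes of smallest p in each direction are described below by their role. None of them passed the threshold in this fit, and their values were what chose them. Gene lists were chosen with earlier results of these data known, and several of them hold some of the 12 lower genes. Their counts, given beside the share of all genes, therefore describe the members and test nothing.

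The lower gene of smallest p, Dusp4, is a brake of the MAP kinase pathway, as is Spred1, the last of the 12 by p. This pathway carries growth factor and synaptic signals from Ras to ERK, and its target genes include phosphatases and adaptor proteins that switch it off again, so their transcripts are often read as a record of recent ERK activity. Dusp4 encodes a nuclear phosphatase that inactivates ERK. On PCA arrays 1 to 5 Dusp4 lay at 7.0, 6.2, 6.4, 6.7 and 6.7, and on PCA+NH3 arrays 1 to 5 at 5.8, 5.2, 5.9, 5.5 and 5.8. Every PCA+NH3 array was below every PCA array. The difference was -0.96 (SE 0.16, 95% interval -1.29 to -0.63), a level 0.514 times that of PCA, with a limma adjusted p of 0.0577. It was -0.90 (SE 0.21) without the 4 arrays and -0.91 with Ttr as a covariate. Without PCA array 2 the limma adjusted p was 0.0184, and without PCA array 3 it was 0.0453; over all alternatives it ran from 0.0145 to 1. In sham-operated rats Dusp4 lay between 6.1 and 6.9.

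Spred1, an inhibitor of the step from Ras to Raf, lay at 9.2, 8.9, 9.0, 9.0 and 9.0 in PCA and at 8.7, 8.7, 8.6, 8.8 and 8.7 in PCA+NH3, again without overlap. Its difference was -0.32 (SE 0.08, limma, adjusted p = 0.609). Spry4, a Sprouty inhibitor of receptor tyrosine kinase signalling, lay at 7.9, 6.5, 6.3, 7.3 and 7.3 in PCA and at 5.7, 6.4, 6.2, 6.7 and 6.3 in PCA+NH3. Those groups overlapped, PCA array 3 lying below 2 PCA+NH3 arrays and PCA array 2 below 1, and the difference was -0.80 (SE 0.26). Spred2, the relative of Spred1, was lower by 0.44 (SE 0.17), and Etv5, an ETS transcription factor induced by ERK, by 0.38 (SE 0.13). Dusp16, a phosphatase for the JNK and p38 kinases, was lower by 0.24 (SE 0.09). The ERK phosphatase Dusp6 was lower by 0.32 (SE 0.16), with an unadjusted limma p of 0.0545. The one member with a large difference upward was Dusp1, a phosphatase induced by stress and glucocorticoids, at 0.56 (SE 0.28). Over the 21 measured members of the list of MAP kinase feedback genes and targets, 17 were lower and 2 higher with ammonia, where 49.3% of all genes were lower. Of these, 6 were lower at an unadjusted p under 0.05, where 2.89% of all genes were, and none (0) higher, where 2.08% were. The list's median was -0.10, where the median of all genes was 0, and it was -0.05 without the 4 arrays, with 13 members lower.

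**Figure D2:**
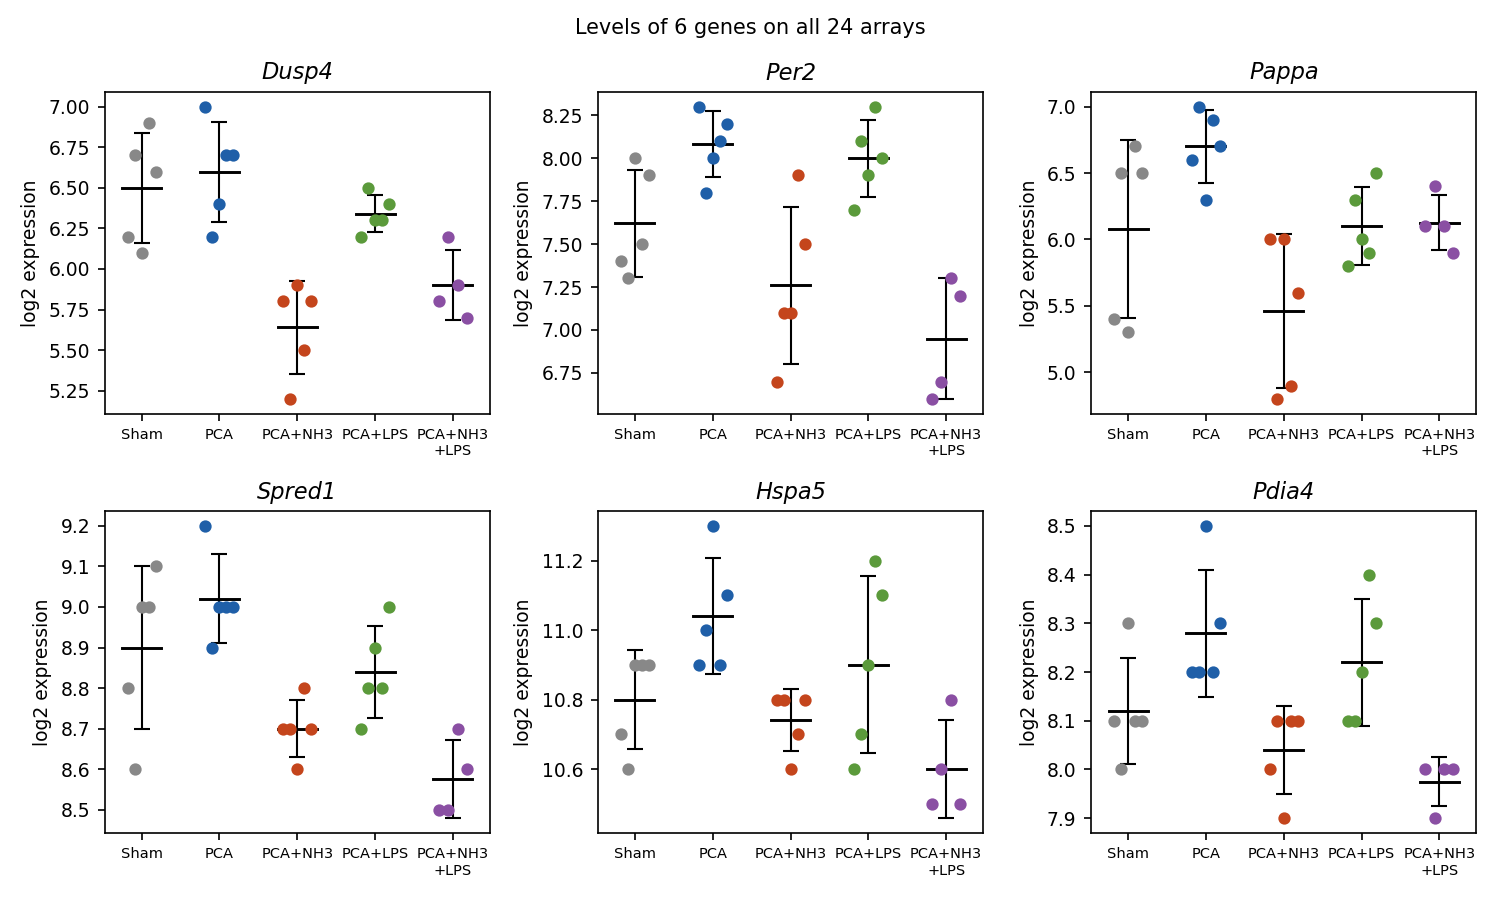
Log2 levels of Dusp4, Per2, Pappa, Spred1, Hspa5 and Pdia4 on all 24 arrays by group; points are arrays, horizontal lines are group means and error bars are SD. Dusp4, Pappa, Spred1, Hspa5 and Pdia4 do not overlap between PCA and PCA+NH3, and Per2 does through PCA+NH3 array 4 at 7.9.

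Per2, a repressor in the negative limb of the circadian clock, was next among the larger differences. The clock is a loop in which Bmal1 with Clock or Npas2 switches on the Per and Cry genes through E-box sequences, and the Per and Cry proteins then silence them. No label gives the hour at which tissue was collected. The promoter of Per2 is shown because Per2 is the clock gene with the largest difference. The 300 bases of its RefSeq promoter (chr9:99496944-99497243, GRCr8, minus strand), from 250 bases before the gene start to 50 after, hold 1 copy of CACGTT, the E-box variant known as the E-prime box of Per2, in capitals.
Per2: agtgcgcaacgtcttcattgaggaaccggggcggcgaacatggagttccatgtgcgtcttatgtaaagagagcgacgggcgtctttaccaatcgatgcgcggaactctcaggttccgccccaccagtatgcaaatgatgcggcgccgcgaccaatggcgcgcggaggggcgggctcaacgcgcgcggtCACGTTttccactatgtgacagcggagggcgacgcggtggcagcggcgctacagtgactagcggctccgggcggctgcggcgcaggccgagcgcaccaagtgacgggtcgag
The letters CACGTT, on either strand, occur in 5.3% of 27457 promoters of this length, and the E-box CACGTG, absent from this window, in 7.08%. Per2 lay at 8.3, 7.8, 8.0, 8.1 and 8.2 on PCA arrays 1 to 5 and at 6.7, 7.1, 7.1, 7.9 and 7.5 on PCA+NH3 arrays 1 to 5. Only PCA+NH3 array 4 reached into the PCA range. The difference was -0.82 (SE 0.19, limma, adjusted p = 0.48), a level 0.566 times that of PCA. It was -0.58 (SE 0.22) without the 4 arrays and -0.78 with Ttr as a covariate. Sham arrays lay between 7.3 and 8.0. Over the 18 measured clock genes, 6 were higher and 9 lower, where 42.3% and 49.3% of all genes were, with a median of -0.01. Only Per2 and Nfil3, a repressor that competes with the activators Dbp and Tef, had an unadjusted limma p under 0.05. At that level 2.89% of all genes were lower and 2.08% higher. Nfil3 was higher by 0.30 (SE 0.14). The activators Bmal1 and Npas2 were higher by 0.22 (SE 0.13) and 0.20 (SE 0.12), and Per1 was lower by 0.12 (SE 0.15).

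Pappa had the largest difference among the lower genes. It encodes a secreted protease that cuts IGF-binding proteins and so frees insulin-like growth factors. Its level was 6.6, 7.0, 6.3, 6.9 and 6.7 in PCA and 6.0, 4.8, 6.0, 4.9 and 5.6 in PCA+NH3, with no overlap and a wider spread in PCA+NH3 (SD 0.58) than in PCA (SD 0.27). The difference was -1.24 (SE 0.26, limma, adjusted p = 0.401), a level 0.423 times that of PCA. In sham-operated rats it spanned 5.3 to 6.7, which covers most of both groups. Among the 26 measured genes of growth factor and insulin-like growth factor signalling, 14 were higher and 10 lower with a median of 0.02, and 4 were lower at an unadjusted p under 0.05, where 2.89% of all genes were. Besides Pappa these were the growth factors Fgf16, lower by 0.42 (SE 0.10), and Igf1, lower by 0.32 (SE 0.15), and the receptor Fgfr1, lower by 0.32 (SE 0.09). Fgf16 was near the bottom of the scale in both groups, from 3.9 to 4.1 in PCA and from 3.4 to 3.8 in PCA+NH3.

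Bach2, a transcriptional repressor known from lymphocytes, lay at 6.5, 6.0, 5.8, 6.4 and 6.3 in PCA and at 5.8, 5.3, 5.6, 5.5 and 5.7 in PCA+NH3. The groups touched at 5.8, and the difference was -0.62 (SE 0.13, limma, adjusted p = 0.401). Leaving out PCA array 3 gave a limma adjusted p of 0.0453, and over all alternatives it ran from 0.0342 to 1. Sipa1l2, a GTPase-activating protein for Rap at synapses, lay at 8.6, 8.1, 8.0, 8.5 and 8.7 in PCA and at 7.7, 7.4, 7.6, 7.8 and 7.9 in PCA+NH3. These groups did not overlap, and the difference was -0.70 (SE 0.16, limma, adjusted p = 0.48). In sham-operated rats Bach2 lay at 5.7 to 5.8 and Sipa1l2 at 7.3 to 8.1. PCA against Sham gave 0.48 (SE 0.13) for Bach2, 0.52 (SE 0.16) for Sipa1l2 and 0.62 (SE 0.26) for Pappa; that comparison shares the PCA arrays with the ammonia comparison, so a high or low PCA array moves both in opposite directions.

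Genes of cyclic AMP and CREB signalling, the pathway that carries G protein-coupled receptor signals to transcription, included several lower members. Creb5, a transcription factor that binds cyclic AMP response elements, lay at 7.8, 7.8, 7.9, 8.3 and 7.9 in PCA and at 7.6, 7.3, 7.5, 7.6 and 7.6 in PCA+NH3. No array of one group entered the range of the other, and the difference was -0.42 (SE 0.10, limma, adjusted p = 0.48). Sham arrays lay between 7.5 and 7.7, and PCA against Sham, which shares the PCA arrays, gave 0.28 (SE 0.10) for Creb5. Adcy8, a calcium-stimulated adenylyl cyclase that makes cyclic AMP, was lower by 0.40 (SE 0.11). Pde10a and Pde4d, which degrade it, were lower by 0.48 (SE 0.15) and 0.12 (SE 0.06). Gpr3, a receptor that raises cyclic AMP without a known ligand, was lower by 0.32 (SE 0.12). These 5 were the members with an unadjusted limma p under 0.05 among 25 measured, where 2.89% of all genes were lower at that level; 15 members were lower and 10 higher, with a median of -0.06. The largest difference of the list was upward, in Pcsk1, a prohormone convertase, at 0.66 (SE 0.33), with 5.8 on PCA array 3 and 4.3 to 4.7 on the other PCA arrays, against 4.4 to 6.5 in PCA+NH3. Prkacb, a catalytic subunit of protein kinase A, was the 1 member higher without overlap, where 0.0992% of all genes were, at 8.6 or 8.7 in PCA and 8.8 or 8.9 in PCA+NH3, a difference of 0.14 (SE 0.08). Sstr2, a somatostatin receptor that inhibits adenylyl cyclase, was outside that list. It lay at 6.4, 6.3, 6.4, 6.1 and 6.4 in PCA and at 6.0, 5.7, 6.1, 5.7 and 5.9 in PCA+NH3, touching at 6.1, with a difference of -0.44 (SE 0.11, limma, adjusted p = 0.609).

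The remaining lower genes were Cd40lg, Or10d3 and Capza1-ps1, all near the bottom of the scale, between 2.4 and 3.3 on the PCA and PCA+NH3 arrays. Cd40lg encodes a T cell ligand and Or10d3 an odorant receptor, and Capza1-ps1 is named as a pseudogene. Among 30 potassium channel genes, 19 were lower and 10 higher with a median of -0.04. The largest difference there was in Kcnab1, a beta subunit that speeds inactivation of voltage-gated channels, at 9.8, 9.6, 9.3, 9.8 and 9.8 in PCA and 9.3, 8.3, 9.6, 8.5 and 9.1 in PCA+NH3. Those groups overlapped, with the lowest levels on PCA+NH3 arrays 2 and 4, and the difference was -0.70 (SE 0.19).

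**Figure D3:**
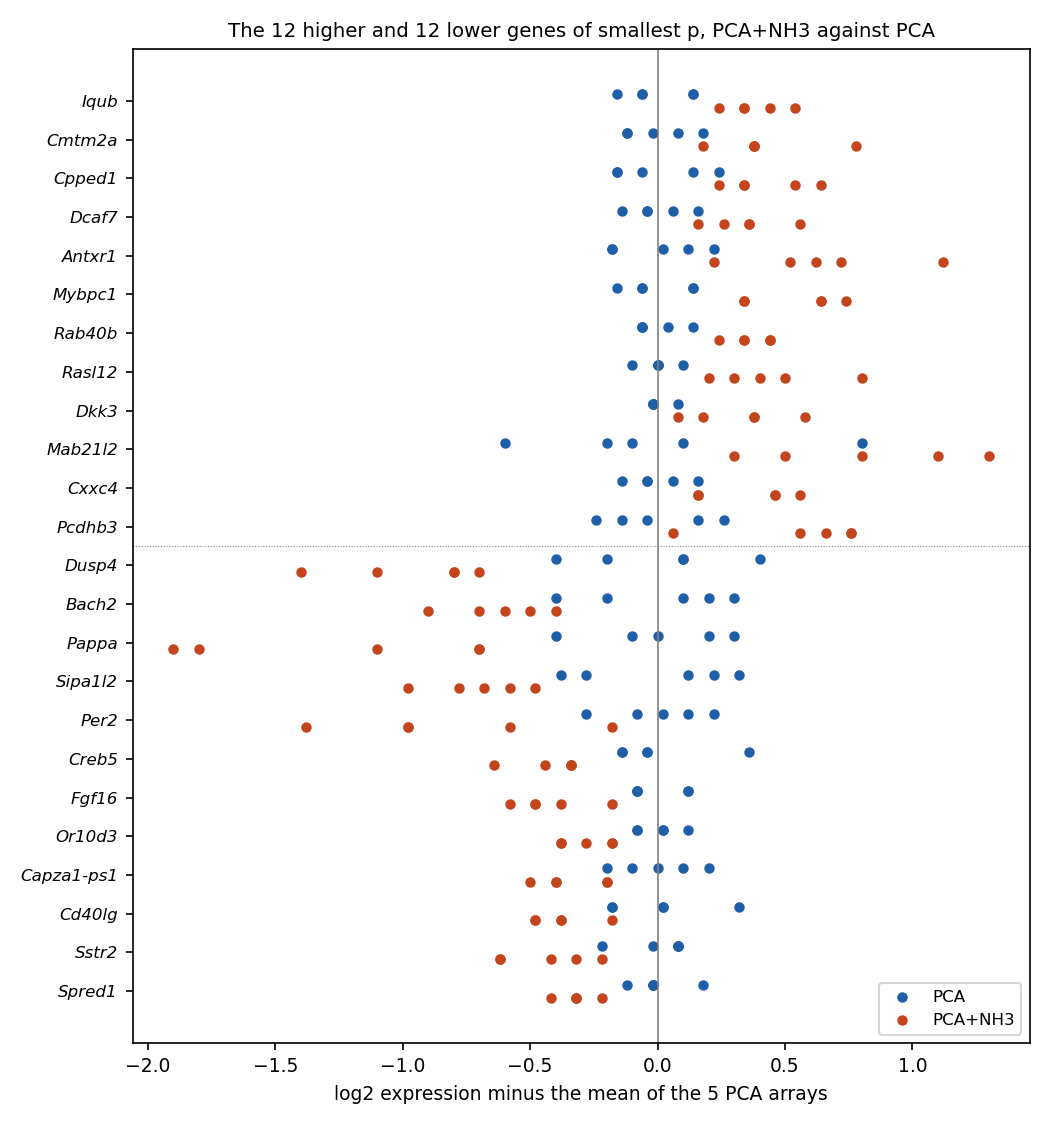
Log2 level of the 12 higher and 12 lower genes of smallest p on each PCA (blue) and PCA+NH3 (red) array, minus the mean of the 5 PCA arrays; each point is an array, equal values lie on top of each other, and the dotted line parts the higher from the lower genes. Pappa and Dusp4 reach farthest to the left, and 4 of the higher and 7 of the lower genes have groups that do not overlap.

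Chaperones of the endoplasmic reticulum were lower by small amounts in nearly all members. These proteins fold secreted and membrane proteins, and their genes are switched on together in the unfolded protein response by Atf6 and by the spliced form of Xbp1, which act with NF-Y at the endoplasmic reticulum stress element, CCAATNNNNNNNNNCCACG. That element, searched on both strands, was found in 7 of the 17 members with a RefSeq promoter (41.2%) and in 21 of all 27457 promoters (0.0765%). Hspa5, the BiP chaperone and sensor of the response, is shown with its whole RefSeq promoter (chr3:38452766-38453065, GRCr8, plus strand), the element in capitals.
Hspa5: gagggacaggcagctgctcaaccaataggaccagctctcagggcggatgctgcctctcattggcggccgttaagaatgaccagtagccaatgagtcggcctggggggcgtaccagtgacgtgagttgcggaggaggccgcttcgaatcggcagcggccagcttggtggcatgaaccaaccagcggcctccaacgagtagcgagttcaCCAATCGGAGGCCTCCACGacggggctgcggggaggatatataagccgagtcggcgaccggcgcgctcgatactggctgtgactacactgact
The sites of Xbp1, Dnajc3, Creld2 and Calr are shown with 10 bases on each side, because they share the element while their differences run from -0.32 in Xbp1 to -0.06 in Calr. The element is in capitals; in Creld2 and Calr it lies on the opposite strand and reads as its reverse complement.
Xbp1: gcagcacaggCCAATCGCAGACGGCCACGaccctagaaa
Dnajc3: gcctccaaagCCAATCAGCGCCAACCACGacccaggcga
Creld2: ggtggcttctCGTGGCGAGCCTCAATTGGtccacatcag
Calr: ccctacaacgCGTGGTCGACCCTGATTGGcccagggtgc
In GRCr8 these sites lie at chr14:84604548-84604586 on the plus strand, chr15:102432524-102432562 on the plus strand, chr7:121789229-121789267 on the plus strand and chr19:40213125-40213163 on the plus strand. The chaperone Hsp90b1 held 2 such sites and differed by only -0.08 (SE 0.08).

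Hspa5 lay at 10.9, 11.0, 11.3, 10.9 and 11.1 on PCA arrays 1 to 5 and at 10.8, 10.8, 10.6, 10.7 and 10.8 on PCA+NH3 arrays 1 to 5. All PCA+NH3 arrays were below all PCA arrays, and the difference was -0.30 (SE 0.10, limma, adjusted p = 0.912). Pdia4, a disulfide isomerase, lay at 8.2, 8.2, 8.5, 8.2 and 8.3 in PCA and at 8.0, 8.1, 7.9, 8.1 and 8.1 in PCA+NH3, with a difference of -0.24 (SE 0.07). Dnajb11, a cochaperone of Hspa5, lay at 8.2 or 8.3 in PCA and at 7.9 or 8.0 in PCA+NH3, with a difference of -0.28 (SE 0.08). Hspa5, Pdia4 and Dnajb11 were the 3 of 21 members without overlap, where 0.187% of all genes had that pattern in that direction. Sdf2l1, part of an Hspa5 complex, was lower by 0.36 (SE 0.14), and the transcription factor Xbp1 by 0.32 (SE 0.13). Manf, a secreted stress-induced factor, was lower by 0.22 (SE 0.10), Sel1l, of the degradation machinery, by 0.16 (SE 0.06), and Atf6 by 0.12 (SE 0.06). In all, 19 of 21 members were lower and 2 higher, 8 were lower at an unadjusted p under 0.05, where 2.89% of all genes were, and the median was -0.12. The median was -0.17 without the 4 arrays, again with 19 members lower. The list mean averaged -0.01 in Sham, 0.09 in PCA and -0.05 in PCA+NH3. PCA against Sham, which shares the PCA arrays, had a list median of 0.10. Of the 7 members with the element 6 were lower, and of the 10 without it 10 were; the median was -0.12 in each set. Hspa5 on PCA array 3, the array with high ependyma and brainstem list means, was the highest of its group.

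Cytosolic and mitochondrial heat shock genes, the chaperones under Hsf1, were lower in 14 and higher in 4 of 20 members, with a median of -0.06. Of all genes, 49.3% were lower. Dnajb1, the cochaperone of Hsp70, was the 1 member with an unadjusted limma p under 0.05, where 2.89% of all genes were lower at that level. It was lower by 0.22 (SE 0.10). Hspb1, a small heat shock protein, was lower by 0.34 (SE 0.19).

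None (0) of the 12 higher genes belonged to a gene list. Iqub, an IQ motif and ubiquitin domain protein of motile cilia, lay at 8.1, 8.2, 8.2, 8.4 and 8.4 in PCA and at 8.6, 8.8, 8.6, 8.5 and 8.7 in PCA+NH3. The groups did not overlap, the difference was 0.38 (SE 0.08, limma, adjusted p = 0.401), and a second probe set gave 0.34. It was 0.29 (SE 0.10) without the 4 arrays. Ependymal markers, which also come from ciliated cells, were higher in 9 of 9 on all arrays, where 42.3% of all genes were. Their median of 0.38 was 0.04 without the 4 arrays. In PCA+NH3+LPS against PCA+LPS they were lower in 9 of 9, where 50% of all genes were, with a median of -0.17. Their part in the difference of Iqub was not tested. Mybpc1, a myosin-binding protein, was higher by 0.54 (SE 0.14), Rab40b, a small GTPase, by 0.36 (SE 0.09), and Rasl12, a Ras-like GTPase, by 0.44 (SE 0.11), each without overlap. Mab21l2, a developmental regulator, showed the largest difference of the 12, at 7.3, 7.8, 8.7, 7.7 and 8.0 in PCA and 8.2, 9.0, 8.4, 9.2 and 8.7 in PCA+NH3. PCA array 3 lay inside the ammonia range, and the difference was 0.80 (SE 0.21, limma, adjusted p = 0.609). Sham arrays lay between 8.2 and 9.1, and PCA against Sham, which shares the PCA arrays, gave -0.66 (SE 0.21). Antxr1, a receptor for collagen and anthrax toxin, was higher by 0.64 (SE 0.17), and by 0.47 (SE 0.18) without the 4 arrays. In Sham it lay between 6.5 and 7.4, and PCA against Sham gave -0.42 (SE 0.17). Dkk3, a secreted protein of the Dickkopf family, was higher by 0.32 (SE 0.08), and Cxxc4, an inhibitor of Wnt signalling, by 0.36 (SE 0.10). Differences of 0.34 to 0.56 were found in Dcaf7, Cmtm2a, Cpped1 and the protocadherin Pcdhb3.

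Cholesterol synthesis genes, which SREBP2 switches on when cell sterol is low, were higher in 18 and lower in 2 of 22 members, where 42.3% of all genes were higher. Insig1, the sterol-regulated brake on SREBP, was higher by 0.42 (SE 0.17), and the squalene synthase Fdft1 by 0.18 (SE 0.09). Both were among the 3 members higher at an unadjusted limma p under 0.05, where 2.08% of all genes were. Insig1 lay at 8.9, 9.1, 9.1, 8.7 and 8.6 in PCA and at 9.7, 9.6, 9.0, 8.8 and 9.4 in PCA+NH3. The 3 high arrays were those with high Ttr. Without the 4 arrays the differences were 0.02 for Insig1 and 0.04 for Fdft1, and the list's median went from 0.06 to 0.04. The list mean averaged 0.03 in Sham, -0.10 in PCA and 0.03 in PCA+NH3. PCA against Sham, which shares the PCA arrays, had a list median of -0.13.

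Immediate early genes, which neurons switch on within minutes of activity, were split, 9 higher and 8 lower of 19. Fos, a subunit of AP-1, lay at 6.5, 6.2, 5.7, 6.2 and 6.1 in PCA and at 6.0, 7.5, 6.2, 7.7 and 8.0 in PCA+NH3. PCA+NH3 arrays 2, 4 and 5 were above all PCA arrays and arrays 1 and 3 were among them, and the difference was 0.94 (SE 0.38, limma, adjusted p = 0.951). Npas4, an activity-dependent transcription factor of neurons, differed by 1.02 (SE 0.58), with its 2 highest values on PCA+NH3 arrays 4 and 5. Sham arrays reached 8.0 for Fos. Of 5 cold-inducible genes all were higher, where 42.3% of all genes were. Among them the RNA-binding protein Cirbp, from 8.2 to 8.5 in PCA and from 8.6 to 8.8 in PCA+NH3, was higher by 0.30 (SE 0.14). Rbm3 of the same family differed by 0.26 (SE 0.17), and the list's median of 0.26 was 0.09 without the 4 arrays.

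Among gene groups that hepatic encephalopathy is known for, 6 lists gave no member with an unadjusted limma p under 0.05. Neurosteroid synthesis gave 1 of 14, where 2.89% of all genes were lower at that level. That member was Fdxr, which passes electrons to steroid-making enzymes, lower by 0.18 (SE 0.06) with overlapping groups. In ammonia, glutamine and glutamate handling, 15 of 26 measured members were higher and 9 lower, with a median of 0.02 and single differences from -0.18 to 0.38. Glul, glutamine synthetase itself, had no probe set with a single symbol. The ammonia channel Rhbg differed by 0.16 (SE 0.10), the neuronal glutaminase Gls2 by -0.10 (SE 0.07) and the astrocyte glutamate transporter Slc1a2 by 0.14 (SE 0.16). The 17 genes of astrocyte water, potassium and volume control had a median of 0.04 (11 higher, 3 lower), which was -0.04 without the 4 arrays (5 higher, 12 lower); the water channel Aqp4 differed by 0.16 (95% interval -0.09 to 0.41) and the filament protein Gfap by 0.18 (95% interval -0.36 to 0.72), which was -0.21 (SE 0.34) without those arrays. NMDA and AMPA receptor genes had a median of 0 over 16 members, with Grin2b at -0.18 (SE 0.16). Genes of GABA receptors and GABA turnover had a median of 0 over 23 members, with Gabrg1 at 0.18 (SE 0.12). The 19 genes of nitric oxide and cyclic GMP had a median of -0.04, with the phosphodiesterase Pde1c at -0.34 (SE 0.17). Innate inflammation and NF-kB genes were lower in 17 and higher in 9 of 28, with a median of -0.04 and the prostaglandin synthase Ptgs2 at -0.50 (SE 0.28).

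Microglia markers, which track the resident immune cells of brain, were lower in 13 and higher in none (0) of 15, where 49.3% of all genes were lower. The list's median was -0.12, and no member had an unadjusted limma p under 0.05. Itgam, an integrin of microglia, had the largest difference of the list, at -0.30 (SE 0.23). The list's median without the 4 arrays was -0.22, and PCA array 3 alone stood high, at a list mean of 0.39 against -0.08 to -0.02 on the other PCA arrays. Lyn, a Src family kinase of microglia and other immune cells, lay at 7.1, 6.8, 7.1, 7.1 and 7.2 in PCA and at 6.6, 6.7, 6.9, 6.8 and 6.5 in PCA+NH3. The lowest PCA array lay inside the ammonia range, and the difference was -0.36 (SE 0.10, limma, adjusted p = 0.614). The complement component C3 differed by -0.28 (SE 0.32).

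**Figure D4:**
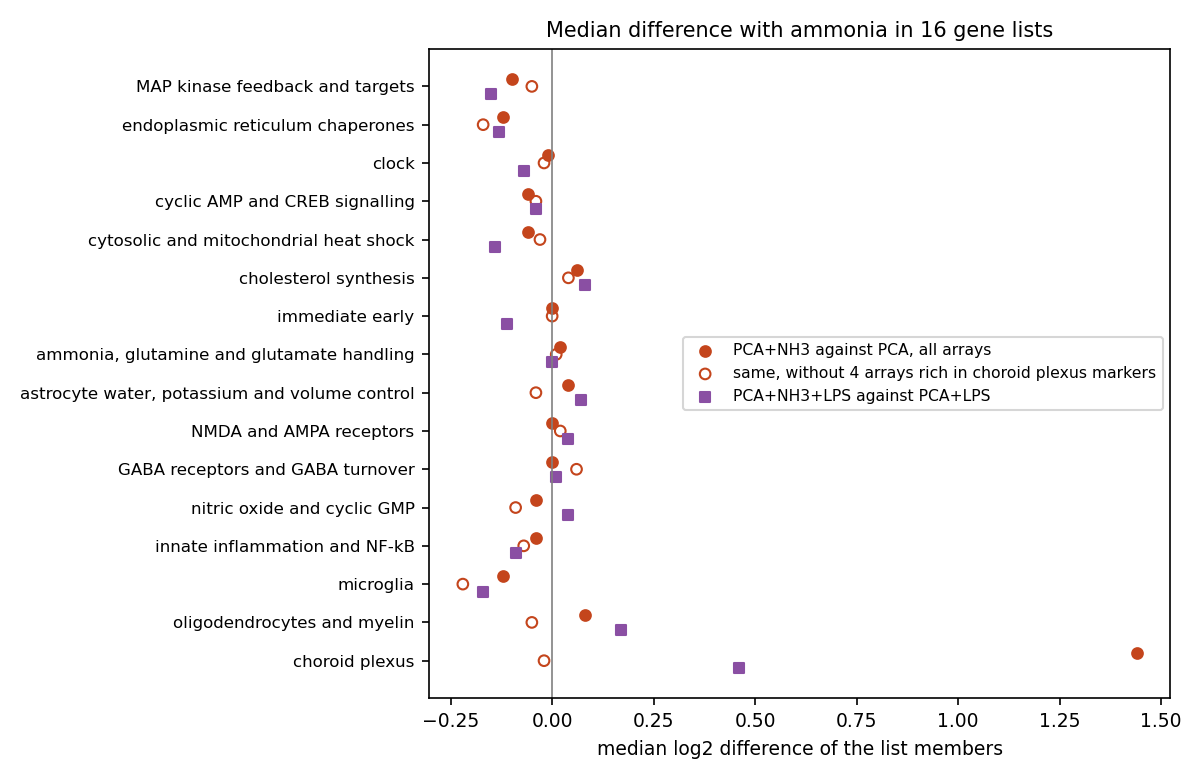
Median log2 difference of the measured members of 16 gene lists: PCA+NH3 against PCA on all arrays (filled circles), the same without the 4 arrays rich in choroid plexus markers (open circles) and PCA+NH3+LPS against PCA+LPS (squares). Choroid plexus markers stand at 1.44 and drop to -0.02 without those arrays, and the endoplasmic reticulum chaperones lie between -0.12 and -0.17 in all 3.

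Ammonia was also given to rats that received LPS, and PCA+NH3+LPS against PCA+LPS takes its group means from none of the 10 arrays described so far, although the shared fit pools the spread over all 24. There too no gene passed (0 of 18137, 0%, limma), with 370 genes higher (2.04%) and 448 lower (2.47%) at an unadjusted p under 0.05 and a smallest adjusted p of 0.332, for Per2. Over all genes with a difference in both, 52.5% had the same direction. Per2 lay at 7.7, 8.1, 7.9, 8.3 and 8.0 in PCA+LPS and at 6.6, 6.7, 7.3 and 7.2 in PCA+NH3+LPS, without overlap. Its difference of -1.05 (SE 0.20) stood beside -0.82 in the rats without LPS. Dusp4 lay at 6.2, 6.5, 6.3, 6.3 and 6.4 in PCA+LPS and at 5.8, 6.2, 5.9 and 5.7 in PCA+NH3+LPS. These touched at 6.2, with a difference of -0.44 (SE 0.17). The interaction term, the difference with LPS minus that without, was 0.52 (95% interval 0.04 to 1.0). Spred1 differed by -0.27 (SE 0.09) and Sstr2 by -0.36 (SE 0.12).

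Of the 12 lower genes, 8 were lower on these separate arrays as well, where 50% of all genes were, and 4 of them, namely Dusp4, Per2, Sstr2 and Spred1, had an unadjusted limma p under 0.05, where 2.47% of all genes were lower at that level. Of the 12 higher genes, 9 were higher, where 48.2% of all genes were, and 3, namely Iqub (0.19, SE 0.08), Dcaf7 (0.20, SE 0.09) and Dkk3 (0.20, SE 0.09), had an unadjusted limma p under 0.05, where 2.04% of all genes were higher at that level. None (0) of the 24 was opposed at that level. When these 9 arrays were fitted alone, so that no array that chose the genes entered the spread, the same 4 lower and 3 higher genes had an unadjusted limma p under 0.05, where 2.8% of all genes were lower and 2.57% higher at that level, and Mab21l2 was opposed. Sizes were smaller, with medians of -0.0925 and 0.138. Other leading genes lay near or across 0 there. Pappa differed by 0.03 (SE 0.28) and Bach2 by 0.23 (SE 0.13). Mab21l2 differed by -0.39 (SE 0.22) and was lower without overlap, from 8.2 to 8.7 in PCA+LPS and from 7.7 to 8.1 in PCA+NH3+LPS. The interaction term was 1.26 for Pappa (95% interval 0.47 to 2.06), 0.85 for Bach2 (0.47 to 1.23) and -1.19 for Mab21l2 (-1.83 to -0.55). It had an unadjusted limma p under 0.05 in 7 of the 12 lower and 5 of the 12 higher genes, where 2.19% of all genes had one with a positive and 1.53% with a negative term. The term contains the difference by which these genes were picked, so nothing is read from that count. No interaction passed after adjustment over all genes (0 of 18137, 0%, limma), with 675 genes at an unadjusted p under 0.05.

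**Figure D5:**
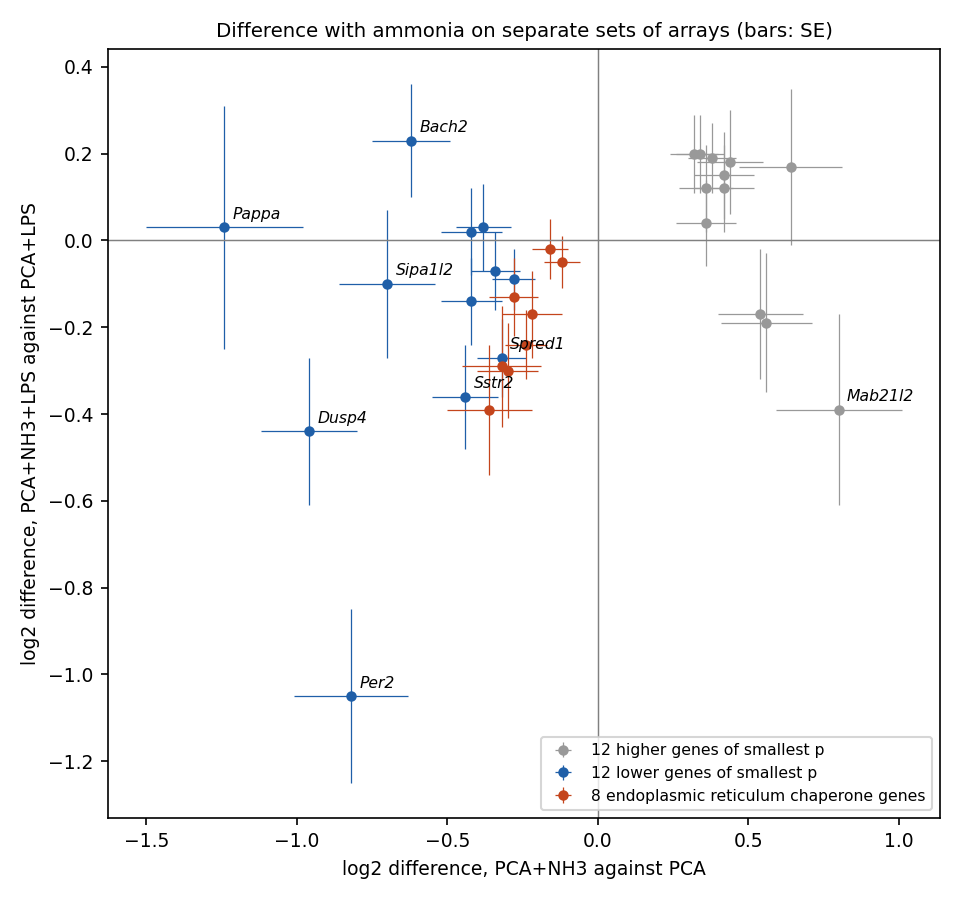
Log2 difference with ammonia without LPS (horizontal axis) and with LPS (vertical axis) for the 12 higher and 12 lower genes of smallest p and 8 endoplasmic reticulum chaperone genes; bars are SE from limma. Per2, Dusp4, Sstr2, Spred1 and the chaperone genes lie below 0 on both axes, and Pappa and Bach2 do not. All genes shown were chosen by their values without LPS, which fixed their side of 0 on the horizontal axis. Of the 21 measured members of the chaperone list, 19 were lower without LPS and 18 with LPS.

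Several gene groups could be set side by side in the same way. The endoplasmic reticulum chaperones had a median of -0.13 with LPS, 18 of 21 being lower, where 50% of all genes were, and 7 at an unadjusted limma p under 0.05, where 2.47% were. Hspa5 differed by -0.30 (SE 0.11), the same size as without LPS, and Pdia4 by -0.24 (SE 0.08). Pdia4 lay at 8.1, 8.1, 8.2, 8.4 and 8.3 in PCA+LPS and at 8.0, 7.9, 8.0 and 8.0 in PCA+NH3+LPS, and was the 1 gene of 18137 that was lower without overlap in both comparisons; in the second, 0.402% of all genes were lower without overlap. Cytosolic and mitochondrial heat shock genes were lower in 20 of 20 with a median of -0.14, where 50% of all genes were lower, and 8 of them at an unadjusted limma p under 0.05, where 2.47% were, among which Hspb1 differed by -0.79 (SE 0.21). MAP kinase feedback genes and targets had a median of -0.15, with 14 lower and 7 higher of 21, where 50% of all genes were lower. At an unadjusted limma p under 0.05, 3 of them were lower, where 2.47% of all genes were. Of the 18 clock genes 12 were lower and 6 higher, where 50% of all genes were lower, with a median of -0.07. At an unadjusted limma p under 0.05, 3 were lower, where 2.47% of all genes were, and 2 higher, where 2.04% were. The clock activators Bmal1 and Npas2 were higher by 0.41 (SE 0.14) and 0.49 (SE 0.13), each without overlap, where 0.375% of all genes were higher without overlap. Fos differed by -0.83 (SE 0.40), against 0.94 without LPS, and the interaction term was -1.77 (95% interval -2.91 to -0.63). The median of the cholesterol synthesis genes was 0.08, with 17 of 22 higher and 4 lower, where 48.2% of all genes were higher. At an unadjusted limma p under 0.05, 4 were higher, where 2.04% of all genes were. Insig1 stood at 0.38 (SE 0.18). This comparison also holds 1 ammonia array rich in choroid plexus markers, array 3, whose cholesterol list mean was 0.07. The other PCA+NH3+LPS arrays lay at 0.14, 0.08 and 0.11, and PCA+LPS arrays between -0.17 and 0.05. Microglia markers were lower in 12 and higher in 3 of 15, with a median of -0.17. Complement genes were lower in 13 and higher in 1 of 14 (median -0.23), both lists holding C1qa, C1qb and C1qc. Glucocorticoid response genes were lower in 13 and higher in 2 of 15 (median -0.17). At an unadjusted limma p under 0.05, 4, 3 and 5 members of these lists were lower, where 2.47% of all genes were. Lyn differed by -0.46 (SE 0.10). Zbtb16, a glucocorticoid-induced transcription factor, lay between 6.7 and 7.2 in PCA+LPS and between 5.8 and 6.2 in PCA+NH3+LPS, a difference of -1.06 (SE 0.23, limma, adjusted p = 0.686), beside -0.46 (SE 0.22) without LPS.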

How the data were processed

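RNA of cerebellum was measured on 24 Affymetrix arrays in 5 groups, assigned by the sample titles. Per the submitters' processing notes, the deposited log2 levels come from RMA, for which the sources used here give no version, annotation build or filter. The deposited log2 values run from 1.5 to 13.5 in steps of 0.1, and both deposited tables held the same values. Depth does not apply to arrays; their number limits the precision.

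Of the single symbols, 14126 probe sets had current ones, 3388 were updated through the RefSeq gene table and 1824 were kept as given; 836 genes had several probe sets. A mean per group was fitted with limma 3.58.1 in R 4.3.3 over all arrays (lmFit, contrasts.fit, eBayes), with two-sided tests; p-values were adjusted over all genes by Benjamini and Hochberg's method, and the threshold was 0.05. The steps were tested on simulated data. Promoters are those of RefSeq, build GRCr8. Members of lists were described by counts and medians without a set test.

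The text names the 12 genes of smallest p in each direction (provisional symbols skipped), up to 4 genes of smallest p per list and a few of prior interest. Otx2, Dbh, Th, Pcsk1, Prkacb, Gabra6, Dusp1, Dusp6, Dusp16, Spred2, Pde4d, Xbp1, Manf, Sel1l, Atf6, Canx and the chaperones named for their promoters were added after their values were seen. Genes, lists and comparisons were chosen with earlier results of these data known. Alternatives covered the arrays in the fit, the replicate block, low values, probe sets, normalization, empirical Bayes options, array weights, choroid plexus markers and single arrays left out. Probe sets with no symbol (8157) or several (1521) were not analysed here, and a few results are not reported here.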

Additional observations from a re-analysis of the deposited data

Results flagged for a closer look

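Among the named genes and gene lists, 248 sets of 5 arrays were checked for an array standing apart from the other 4. Dixon's criterion (0.71 for 5 values) was used, which chance meets in about 1 in 20 sets of unrounded values. It was met by 31. The values here are rounded, and some genes were named after their values were seen, so no excess is read from that count.

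PCA array 3 accounted for a large share of them. Its list means were 0.90 for ependyma, 0.39 for microglia, 0.46 for myelin, -0.26 for granule cells and 0.51 for brainstem neurons. Single genes apart on that array were Dbh at 6.9, Th at 7.7, Pcsk1 at 5.8, Lmx1a, a roof plate and unipolar brush cell factor, at 5.5, Igf1 at 7.3, Prkacb at 8.6, Dusp16 at 7.9, Npas4 at 4.8, Gabra6 at 12 and Dkk3 at 8.4. On other PCA arrays, Creb5 stood at 8.3 and Dnajb11 at 8.3 on array 4, Gls2 at 8.2 and Lyn at 6.8 on array 2, and Pde1c at 8.3 on array 1. PCA array 5 had list means of 0.11 for the glucocorticoid response and 0.09 for growth factor signalling.

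In PCA+NH3, array 4 was apart for Xbp1 at 10.7, Dnajb1 at 7.7 and Zbtb16 at 7.5, each above the other 4 arrays. Array 1 was apart for Pcdhb3 at 5.4 and Slc1a2 at 11.1, array 2 for Canx at 11.0 and Rhbg at 3.9, and array 3 for Pde10a at 7.9 and Prkacb at 8.9. For Dnajb11, Canx, Dkk3, Prkacb and Rhbg the gap was a single step of 0.1, the rounding of the deposited values. What set these arrays apart was not tested.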

How the results depend on the processing

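With all arrays 0 genes passed in PCA+NH3 against PCA. The count was 1 with genes of mean level at least 5, 1 with the trend and robust options and 3 with array weights; leaving out one array at a time gave 0 to 2, with 1 without PCA array 2 and 2 without PCA array 3. The passing genes were Dusp4 throughout, Bach2 with array weights and without PCA array 3, and Pappa with array weights. Other alternatives gave 0, among them the removal of the 4 arrays with choroid plexus markers and, chosen after seeing the data, of the 6 arrays with Ttr above 9. In PCA+NH3+LPS against PCA+LPS, 1 gene (Zbtb16, limma, adjusted p = 0.0255) passed when its 9 arrays were fitted alone. At an unadjusted p under 0.05 the split of 378 higher and 525 lower was 182 and 931 with arrays centred on their median (16.4% higher, against 41.9%), 477 and 462 with cyclic loess, 734 and 806 with array weights, 286 and 215 without the 4 arrays, 280 and 230 without the 6, 349 and 320 with Ttr as a covariate, 324 and 298 with the choroid plexus mean as one, and 283 and 287 with genes of mean level at least 5. Without PCA array 3 it was 582 and 579, and without PCA+NH3 array 2 it was 230 and 408. With arrays centred on their median, PCA+NH3+LPS against PCA+LPS gave 1383 higher and 105 lower, and the interaction 1681 and 54. The cause was not tested.

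With the replicate number as a block, 0 genes passed (smallest adjusted limma p 0.466), with 446 higher and 651 lower at an unadjusted p under 0.05. Same-numbered deviations correlated between -0.105 and 0.15, above 0.1 in 3 of 5 pairs. Of the 5 PCA+NH3 arrays, 2 correlated best with the PCA array of their own number. The pair of PCA+NH3 array 1 and PCA array 3 reached 0.392. These 5 pairs are too few to decide whether the numbers pair the samples.

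Without the 4 arrays the difference of Ttr was -0.53, of Th -0.49, of Dbh -0.41 and of Gfap -0.21; without the 6 it was -0.68 for Th, -0.50 for Dbh, -0.30 for Gfap and -0.03 for Insig1. With Ttr as a covariate Gfap was at -0.01, and with the choroid plexus mean Ttr was at -0.09. Per1 was at 0.01 without PCA+NH3 array 1. Gabra6 ran from -0.04 to 0.06 with one array left out at a time, and was at -0.01 with array weights and -0.02 with centred arrays. The chaperone median was -0.20 without the 6 arrays.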

Other observations

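Markers of other cells differed between PCA+NH3 and PCA by amounts that varied with the list. Ependymal markers were higher in 9 of 9, where 42.3% of all genes were. Their median of 0.38 was 0.04 without the 4 arrays rich in choroid plexus markers. Myelin markers were higher in 14 of 15 with a median of 0.08, which was -0.05 without those arrays. Purkinje cell and granule cell markers had medians of -0.05 and 0.02. Of 14 brainstem neuron markers 9 were lower and 5 higher, with a median of -0.04. The largest differences were upward, 0.92 (SE 0.84) in Th, the rate-limiting enzyme of catecholamine synthesis, and 0.76 (SE 0.73) in Dbh. They followed single arrays, Th lying at 8.8 and 7.8 on PCA+NH3 arrays 1 and 2 and at 7.7 on PCA array 3 and from 4.3 to 4.7 on the others. Slc18a3, the vesicular acetylcholine transporter, was lower by 0.34 (SE 0.09) without overlap, at a low level of 3.4 to 4.1.

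Interferon response genes were higher in 16 and lower in 4 of 23, with a median of 0.08 that was -0.02 without the 4 arrays; Ifi27, an interferon-induced membrane protein, differed by 0.64 (SE 0.30), with 6.2 to 7.6 in PCA and 7.3 to 8.1 in PCA+NH3. Oxidative phosphorylation subunits were higher in 21 and lower in 4 of 28, and genes of glucose and lactate metabolism in 22 and 5 of 28, each with a median of 0.04 and no member (0) at an unadjusted limma p under 0.05.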
